A study of Mus musculus with 4 samples.

Results

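This account concerns complement genes that cells of a tissue can make for themselves. They were read in the dorsal root ganglia of mice mutant for the transcription factor gene Prdm12 and of wild type mice. The members were 9 genes chosen by name: the activating components C2, C3, C4b, C7 and Cfb, the regulators Serping1, Cd55 and Cd59a, and the receptor C3ar1. Of these, 8 had a row among the 14405 genes of the expression matrix and all 8 passed the filter on low values, while C7, a subunit of the membrane attack complex, was not analysed here. The ganglia hold the cell bodies of sensory neurons with their glia, vessels, connective tissue and macrophages. There were 2 wild type samples (WT 1 and WT 2) and 2 mutant samples (MUT 1 and MUT 2), from mice aged 10 weeks of a strain labelled as mixed. The mutants had the genotype Prdm12-/Fl; AvilCreERT2/+, which is 1 null and 1 floxed allele together with 1 copy of a tamoxifen-inducible Cre expressed from the sensory neuron gene Avil. The sources used here do not say whether or when either group received tamoxifen, or whether a sample pooled animals. The Cre is driven by a gene of sensory neurons, whereas several complement genes are known chiefly from other cells of the tissue.

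Complement is a set of proteins that mark surfaces for removal and call in immune cells. The classical and lectin routes cut C4 and C2, the alternative route uses factor B, and each route builds an enzyme that cuts C3, after which late components can form a pore in a membrane. Host cells are kept from damage by soluble and membrane-bound regulators. Liver makes most complement of the blood, but fibroblasts, macrophages, adipocytes and glia also transcribe many of its genes.

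In the ganglia the RNA levels of the 3 regulators among the members were far above those of the 4 activating components measured. That order is of these members only. Outside them the activation genes C1qa and Cfd had wild type means of 152 and 193 FPKM, above that of Cd55 (113 FPKM). The regulator gene Cd59b had 4.54 FPKM. In neither class did a member's difference between the genotypes pass the adjusted test. Serping1, Cd55 and C2 had both mutant samples below both wild types, C3 and Cd59a had higher mutant means with overlapping samples, and C4b, Cfb and C3ar1 had nearly equal means. Values are FPKM, the read fragments scaled to transcript length and library size, so levels can be compared between genes. Differences were tested on log2(FPKM + 1), mutant minus wild type, with limma over 14040 genes of at least 1 FPKM on average in either group. With limma, 0 of the 8 members passed an adjusted p of 0.05, where 0% of all genes tested passed. At an unadjusted p under 0.05, 1 member was lower (Cd55) and 0 were higher, where 3.01% of all genes were lower and 1.35% higher. Which members these were depended on single libraries: without MUT 1 they were C2, C3 and Serping1, 3 in all with Cd55 not among them, while over all genes 927 were then lower and 880 higher in place of 422 and 190. Without WT 2 it was C2 alone. Groups did not overlap for 3 of 8 members, all lower in the mutants, where 32.1% of all genes did so, 19.6% lower and 12.5% higher. The median log2 difference was -0.046 over the 4 activating components measured and -0.40 over the 3 regulators, beside -0.0048 over all genes tested. With 2 samples against 2, an exact two-sided permutation test cannot give a p below 0.333.

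**Figure D1:**
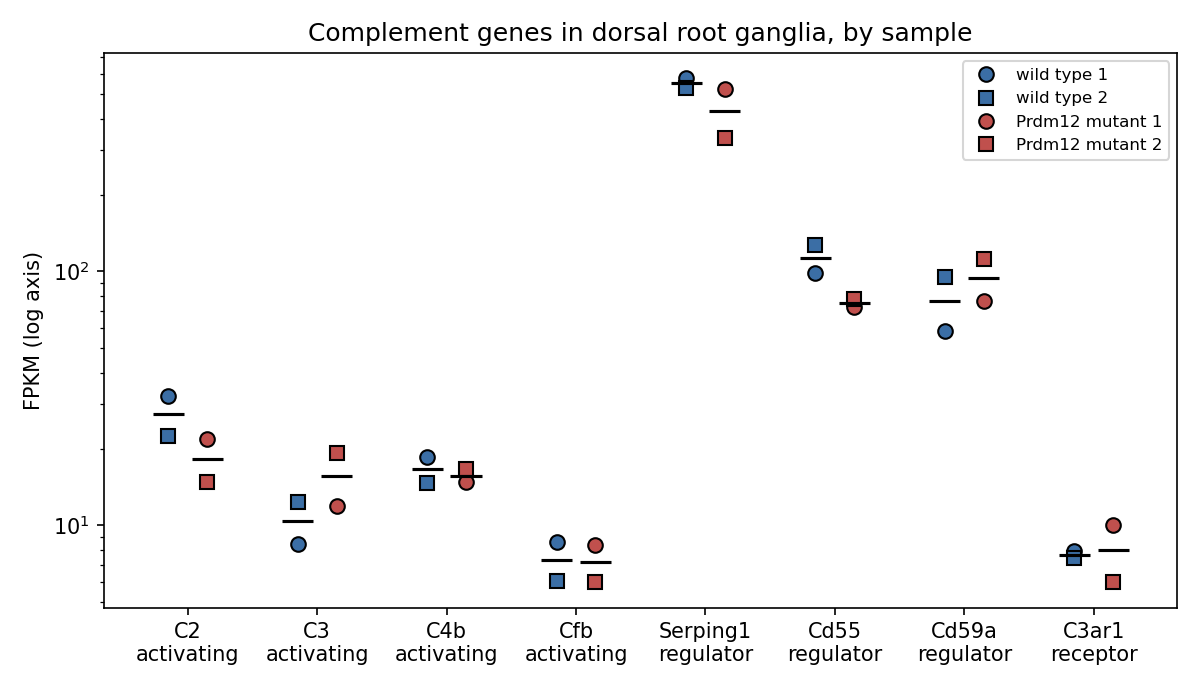
FPKM of the 8 complement genes (log axis) in each of the 2 wild type (blue) and 2 Prdm12 mutant samples (red), with circles for replicate 1, squares for replicate 2 and a black line at each group's mean. Serping1 stands above all the others at 334 to 577 FPKM, and the mutant samples lie below both wild types for C2, Serping1 and Cd55.

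Some facts of the samples bear on these genes. Prdm12 was at 7.58 and 10.7 FPKM in the wild types and at 1.05 and 1.50 FPKM in the mutants, lower in both libraries that carry the mutant label (limma adjusted p = 0.180), and Avil was present in all 4 samples at 78.4 to 164 FPKM. Neuronal markers of the labelled tissue were present in each sample, with 8 pan-neuronal genes, none at 0, summing to 3553 to 5637 FPKM. Markers of other tissue varied widely between the samples of 1 group: the summed FPKM of 10 skeletal muscle genes ran from 324 to 2481 in wild type and from 138 to 5101 in the mutants, and that of 10 adipocyte genes from 397 to 790 and from 235 to 2194, with MUT 2 highest in both. In bulk samples, fewer cells of a type and less RNA per cell cannot be told apart. Separate animals are not named in the labels, so the p-values rest on a spread between libraries that may be partly technical. Sequencing depth is not given by FPKM values, so no counting interval is stated.

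Promoters are shown for 3 members on which the results turn: C3, which had the largest positive difference, Cd59a, whose 4 samples fell in the same order as those of C3, and Cd55, the member at an unadjusted p under 0.05. They are the 250 bases before the start site, 5′ to 3′ on the gene's strand, from RefSeq on GRCm38.p6, the assembly of mm10. Promoter entries were matched for 5 of the 9 members, and C2, C4b, Cfb and Serping1 had none. The C3 promoter is chr17:57228137-57228386 (minus strand), that of Cd59a is chr2:104095551-104095800 (plus strand), and that of Cd55 is chr1:130462745-130462994 (minus strand). Capitals mark matches, on either strand, to 4 motifs of inflammatory and interferon signalling: ISRE (GAAANNGAAA), GAS (TTCNNNGAA), NF-kB (GGGNNNNNCC) and C/EBP (TTNNGNAA).
C3: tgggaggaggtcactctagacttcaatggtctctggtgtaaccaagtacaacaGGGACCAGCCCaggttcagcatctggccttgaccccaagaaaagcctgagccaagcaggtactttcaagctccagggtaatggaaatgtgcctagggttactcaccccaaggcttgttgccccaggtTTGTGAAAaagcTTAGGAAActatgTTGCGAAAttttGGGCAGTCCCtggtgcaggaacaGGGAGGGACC
Cd59a: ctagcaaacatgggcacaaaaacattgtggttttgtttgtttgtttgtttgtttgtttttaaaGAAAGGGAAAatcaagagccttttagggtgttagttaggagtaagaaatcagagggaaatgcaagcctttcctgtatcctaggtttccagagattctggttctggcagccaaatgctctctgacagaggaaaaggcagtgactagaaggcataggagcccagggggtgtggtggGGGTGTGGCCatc
Cd55: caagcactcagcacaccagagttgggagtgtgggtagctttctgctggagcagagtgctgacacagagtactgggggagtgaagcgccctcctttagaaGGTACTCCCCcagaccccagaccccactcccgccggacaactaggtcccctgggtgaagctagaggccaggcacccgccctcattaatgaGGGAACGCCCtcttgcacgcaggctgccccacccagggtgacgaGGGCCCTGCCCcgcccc

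C3 held NF-kB and C/EBP letters, Cd59a held ISRE and NF-kB letters, and Cd55 held NF-kB letters alone, so the promoters of C3 and Cd59a shared the NF-kB letters that Cd55 also had. In the full entries of 300 bases, which run 50 bases past the start site, NF-kB letters were found in 4 of the 5 members matched, C/EBP letters in 2 (C3 and C7), ISRE letters in 1 (Cd59a) and GAS letters in 1 (C7). Over all 32851 promoter entries of that length, 50.8% held NF-kB letters, 40.7% C/EBP, 3.44% ISRE and 8.30% GAS letters. Some NF-kB matches on the 2 strands overlapped each other, and in these 3 promoters no match overlapped one of another motif. A match describes the letters and is not evidence of a bound site.

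Among the activating components, C2, the protease that C4b binds to form the classical C3 convertase, had the largest log2(FPKM + 1) difference in size. C3 was close to it in the other direction, at 0.53, and by the ratio of means C3 differed as much (1.50-fold). C2 was at 32.3 and 22.5 FPKM in WT 1 and WT 2 and at 21.9 and 14.8 FPKM in MUT 1 and MUT 2. Both mutants were lower than both wild types, but MUT 1 lay just below WT 2, and replicate 2 was the lower sample of each group. By the means, 27.4 ± 6.92 against 18.3 ± 5.01 FPKM (SD, n = 2 each), it was 1.49-fold lower in the mutants. The log2 difference was -0.56 (95% interval -1.21 to 0.10, limma adjusted p = 0.994), about the same size as the gap of 0.50 between the 2 wild types and of 0.53 between the 2 mutants. C2 (ENSMUSG00000024371.14) lies on chromosome 17 at 34862604 to 34898265 on the minus strand of mm10. Its 3′ end is 85 bases from the start of Cfb, and the GENCODE M21 gene Gm20547 spans both, so reads near their border cannot be assigned to one with certainty. Zbtb12 overlaps the span of C2 on the opposite strand, and without strand its reads cannot be told from those of C2 where they overlap.

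C3, the component on which all routes meet, was at 8.47 and 12.4 FPKM in the wild types and at 11.9 and 19.3 FPKM in the mutants. MUT 2 was the highest sample and WT 1 the lowest, and MUT 1 lay below WT 2, so the groups overlapped. The means were 10.4 ± 2.77 and 15.6 ± 5.25 FPKM (SD, n = 2 each), a log2 difference of 0.53 (95% interval -0.19 to 1.24, limma adjusted p = 0.994). Without MUT 2 the difference was 0.20. The summed adipocyte markers were also highest in MUT 2 and higher in WT 2 than in WT 1, at 397, 790, 235 and 2194 FPKM in WT 1, WT 2, MUT 1 and MUT 2. The summed Schwann cell and myelin markers (9 genes, none at 0) were 10251, 8195, 10102 and 21119 FPKM in the same order. Neither sum ranked the 4 samples as C3 did. The summed pan-neuronal markers did, at 3553, 4674, 3762 and 5637 FPKM in WT 1, WT 2, MUT 1 and MUT 2. The part of any of these cells in the C3 values was not tested.

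C4b and Cfb showed no shift between the groups. C4b, whose product forms the classical convertase with C2, was at 18.6 and 14.7 FPKM in the wild types and at 14.8 and 16.7 FPKM in the mutants, with both mutants inside the wild type range. Its log2 difference was -0.070 (95% interval -0.51 to 0.37). Its value is uncertain because 35.2% of the 50-base words of its transcript also occur in that of C4a, a near copy that was not analysed here. Cfb, the protease of the alternative convertase, was at 8.61 and 6.03 FPKM in the wild types and at 8.39 and 5.96 FPKM in the mutants. The replicates of the same number were thus close to each other, and the samples differed by number more than by genotype, with a log2 difference of -0.023 (95% interval -0.61 to 0.56). Replicate 2 was the lower sample by a like proportion in both genes and groups, at 69.7% and 67.6% of replicate 1 in wild type and mutant for C2 and at 70.0% and 71.0% for Cfb.

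Serping1 encodes C1 inhibitor, the serpin that blocks the C1r, C1s and MASP proteases, and was the most abundant member. It was at 577 and 530 FPKM in the wild types and at 521 and 334 FPKM in the mutants. MUT 1 lay just under WT 2, and MUT 2 was well below the other 3 samples. The means were 554 ± 33.0 and 428 ± 132 FPKM (SD, n = 2 each), a log2 difference of -0.40 (95% interval -1.03 to 0.22, limma adjusted p = 0.994). Without MUT 2 it was -0.09. Fibroblast and meninges markers (18 genes, none at 0) were lowest in the same library, with summed levels of 8495 and 7006 FPKM in wild type and 8322 and 4995 FPKM in the mutants. Their most abundant member, the proteoglycan gene Dcn, was at 3462, 3347, 3710 and 1901 FPKM in WT 1, WT 2, MUT 1 and MUT 2, and Gsn at 794, 895, 822 and 646 FPKM. Of the 18 genes, 5 were lower in both mutants without overlap, each at an unadjusted limma p under 0.05, where 19.6% of all genes were lower without overlap: Igf2 (log2 difference -1.50), Slc6a13 (-1.28), Slc22a6 (-1.92), Fmod (-1.55) and Foxc1 (-0.92), named after their values were seen. MUT 2 also had the lowest sums of macrophage (890 FPKM), endothelial (198 FPKM) and mural cell markers (195 FPKM). The part of any of these cells in the Serping1 values was not tested.

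Cd55, or decay-accelerating factor, is a membrane-anchored protein that takes C3 convertases apart, and it was the member whose groups stood most clearly apart. It was at 98.3 and 127 FPKM in the wild types and at 72.5 and 77.9 FPKM in the mutants. Both mutants were close to each other and below both wild types. The means were 113 ± 20.4 and 75.2 ± 3.86 FPKM (SD, n = 2 each), 1.50-fold lower in the mutants. The log2 difference was -0.57 with a 95% interval of -1.03 to -0.10, an unadjusted limma p of 0.0256 and an limma adjusted p of 0.994, and it ran from -0.75 to -0.38 with each sample left out. Cd55 is also known as a marker of nonpeptidergic nociceptors, a class of pain-sensing neurons. The summed level of 11 other markers of those neurons, none at 0, was 210 and 325 FPKM in wild type and 235 and 344 FPKM in the mutants, with a median log2 difference of 0.15. The markers went both ways, and the part of these neurons in the Cd55 values was not tested. Mrgprx1, an itch receptor gene, was the one marker below both wild types in both mutants, at 8.64 and 9.11 against 5.03 and 7.61 FPKM (log2 difference -0.45), and Mrgprd overlapped (-0.48), while Agtr1a was above both wild types in both mutants (0.51). These 3 were named after their values were seen. Of the most abundant, Tmem233 was at 90.5, 141, 105 and 148 FPKM and the ATP-gated channel gene P2rx3 at 27.3, 38.0, 32.5 and 42.2 FPKM in WT 1, WT 2, MUT 1 and MUT 2. In the Cd55 transcript, 13.3% of 50-base words are shared with the neighbouring copy Cd55b, which was not analysed here. The antisense gene Gm16083 overlaps the span of Cd55, and without strand its reads cannot be told from those of Cd55 where they overlap.

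**Figure D2:**
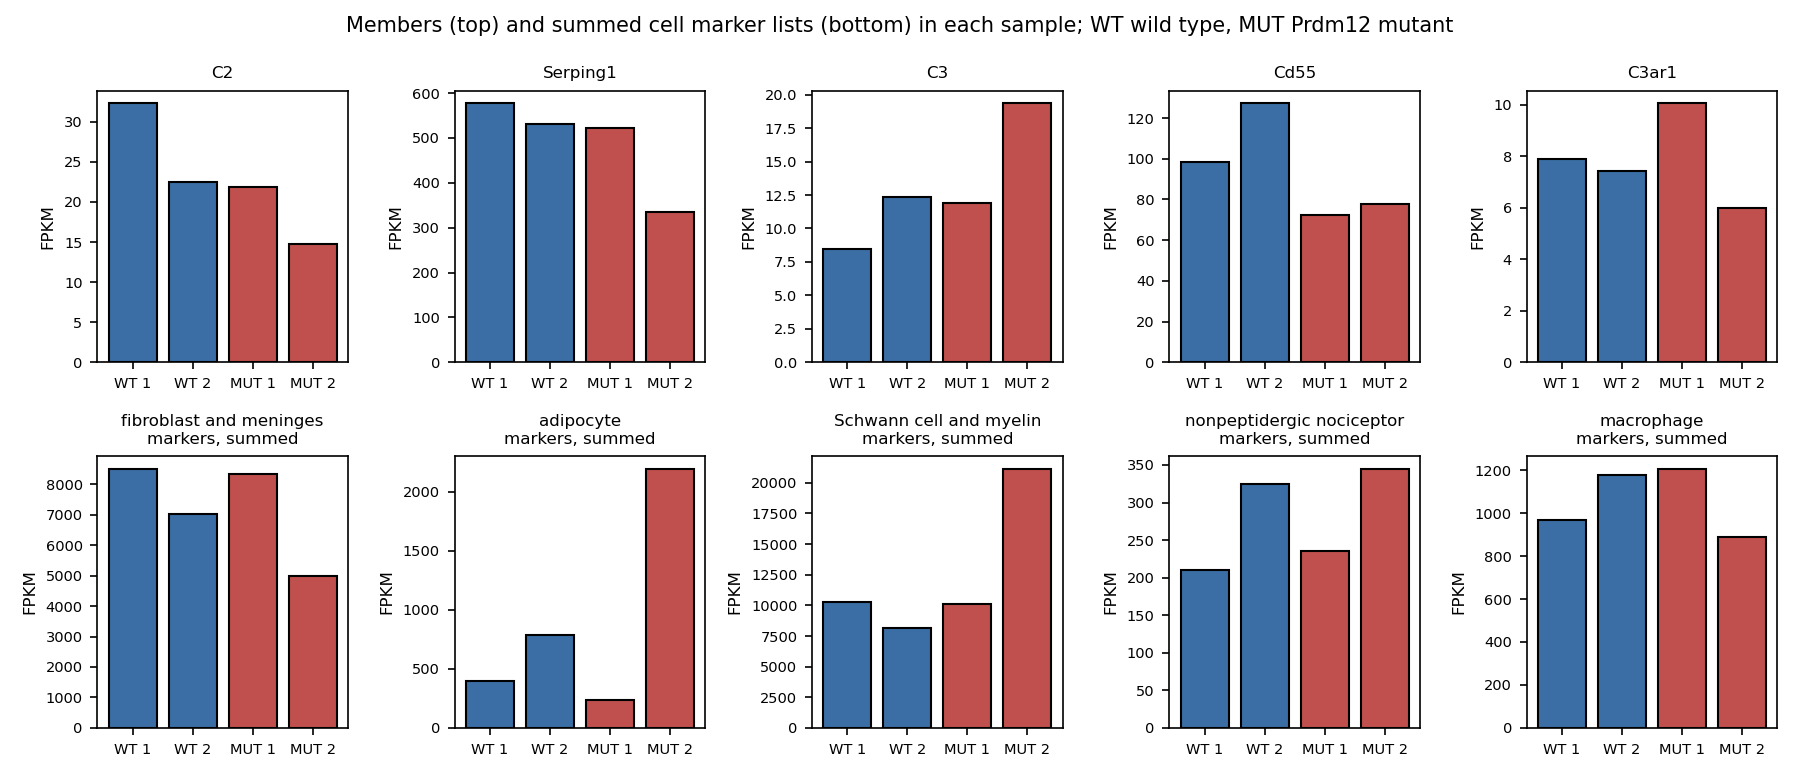
FPKM of 5 members (top row) and summed FPKM of 5 cell marker lists (bottom row) in WT 1, WT 2 (blue bars), MUT 1 and MUT 2 (red bars), each axis from 0. MUT 2 is lowest for Serping1 and fibroblast markers and highest for C3, adipocyte and myelin markers, while both mutants are lowest for Cd55 and replicate 2 is the higher sample of each group for the summed nonpeptidergic markers.

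Cd59a, the membrane protein that stops the attack complex from completing its pore, was at 58.4 and 95.1 FPKM in the wild types and at 76.6 and 112 FPKM in the mutants. Replicate 2 was the higher sample in each group and the groups overlapped. The means were 76.7 ± 25.9 and 94.1 ± 24.8 FPKM (SD, n = 2 each), with a log2 difference of 0.31 (95% interval -0.45 to 1.07). Without WT 1 the difference was -0.039. The summed pan-neuronal markers (3553, 4674, 3762 and 5637 FPKM in WT 1, WT 2, MUT 1 and MUT 2) ranked the samples as Cd59a did. So did the summed nonpeptidergic nociceptor markers, and the part of neurons in the Cd59a values was not tested. The wild type order of the membrane regulators was Cd55 above Cd59a with no overlap (98.3 and 127 against 58.4 and 95.1 FPKM), whereas in the mutants their samples overlapped. Cd59b, a copy of Cd59a with the same activity that shares 3.98% of Cd59a's 50-base words, was much less abundant, at 4.22 and 4.85 FPKM in wild type, against 6.58 and 7.45 FPKM in the mutants (log2 difference 0.53, limma adjusted p = 0.861).

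C3ar1, the receptor for the C3a fragment and in nervous tissue chiefly a gene of macrophages, was at 7.90 and 7.43 FPKM in the wild types and at 10.0 and 5.98 FPKM in the mutants. Both wild types lay between the mutants, and the log2 difference was 0.019 (95% interval -0.59 to 0.63). Macrophage markers (16 genes, none at 0) also had both wild types between the mutants, with summed levels of 969 and 1175 FPKM in wild type and 1205 and 890 FPKM in the mutants, and their part in the C3ar1 values was not tested. Lyz2, the most abundant, was at 447, 624, 588 and 420 FPKM and Tyrobp at 148, 151, 181 and 148 FPKM in WT 1, WT 2, MUT 1 and MUT 2.

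In order of wild type means, Serping1 (554 FPKM) was followed by Cd55 (113), Cd59a (76.7), C2 (27.4), C4b (16.6), C3 (10.4), C3ar1 (7.67) and Cfb (7.32). Of adjacent genes in this order, C3ar1 and Cfb had overlapping samples in both groups, and Cd55 and Cd59a, C2 and C4b, and C4b and C3 overlapped in the mutants alone. Summed over the measured genes of each class, the activating components stood at 67.9 and 55.6 FPKM in wild type, against 57.0 and 56.8 FPKM in the mutants. The regulators stood at 734 and 753 FPKM in wild type, against 670 and 524 FPKM in the mutants. The 2 mutant sums of the regulators were below both wild type sums, and the lowest, MUT 2, was also the sample with the least Serping1.

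The genes whose 4-sample profile was most like each member's were sought among 210 other genes of the fixed lists, by the Euclidean distance of centred log2(FPKM + 1) values over the 4 samples. Serping1 was closest to the endothelial receptor gene Flt1 (distance 0.047) and the complement regulator gene Cr1l (0.23), and C2 to the fibroblast gene Pi16 (0.23) and Flt1 (0.32). C3 was closest to the Schwann cell gene Ncmap (0.11) and the ficolin gene Fcnb (0.21), and Cd59a to Fcnb (0.088) and Gfra2 (0.17), a receptor of the GDNF family. Cfb was closest to its chromosomal neighbours Ddah2 (0.099) and Tnxb (0.10), C4b to its neighbour Atf6b (0.12) and the glutamate transporter gene Slc1a3 (0.14). C3ar1 was closest to the macrophage Fc receptor gene Fcgr1 (0.13) and Psmb9 (0.18), and Cd55 to Gbp2 (0.24) and Fcna (0.33). With 4 samples such likeness is common. Counting the named gene itself, 25 other tested genes were at least as close to C3 as Ncmap, 43 to Cd55 as Gbp2 and 3 to Serping1 as Flt1. The count was 88 to C2 as Pi16, 147 to C4b as Atf6b and 361 to Serping1 as Cr1l.

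The rest of the pathway was read from 48 further complement genes in 4 lists, of which 30 had a row and 26 were tested. With limma, 0 of 26 passed an adjusted p of 0.05. At an unadjusted p under 0.05, 4 were lower and 1 was higher, where 3.01% of all genes were lower and 1.35% higher. The groups did not overlap for 4 lower and 3 higher, where 19.6% and 12.5% of all genes did so, and the median log2 difference was 0.017.

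Of the complement genes tested, the soluble regulators Vtn and Clu had the lowest unadjusted limma p-values. By size, the collectin family gene Colec12 (log2 difference -0.85) differed about as much as Clu. Vitronectin and clusterin, the products of Vtn and Clu, bind late complement complexes and keep them out of membranes. Vtn was at 297 and 257 FPKM in the wild types and at 129 and 114 FPKM in the mutants, with a wide gap between the groups. Its log2 difference was -1.18 (SE 0.170, unadjusted limma p = 0.000684, limma adjusted p = 0.306), and the authors' deposited table of 150 genes gives it a log2 change of -1.19 with q = 0.00742. Vtn was the single further complement gene in that table, and 0 members were in it. By its title the table is limited to a log2 change of 1 at a false discovery rate of 0.05. The largest member difference in size was -0.57 (Cd55), so absence from the table does not speak to the members' significance there. Clu was at 396 and 338 FPKM in the wild types and at 222 and 188 FPKM in the mutants, again without overlap, with a log2 difference of -0.84 (limma adjusted p = 0.601). Igf2, Slc6a13, Slc22a6, Fmod and Foxc1, the 5 fibroblast and meninges markers lower in both mutants, had the same sample order as Vtn and Clu. That order ran from MUT 2 as the lowest through MUT 1 and WT 2 to WT 1. It is not particular to these genes, since C2, Serping1, Colec12 and Flt1 had it too. The choice of markers lower in both mutants already limits the orders possible, and the share of all genes with this order was not counted. The 13 other markers of the list of 18 had overlapping groups. Their sum over all 18 was higher in MUT 1 (8322 FPKM) than in WT 2 (7006 FPKM). The part of these cells in the Vtn and Clu values was not tested.

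Recognition and protease genes were mostly level between the groups. The 3 chains of C1q, which starts the classical route and is made by macrophages, had their highest value in MUT 1 and their lowest in MUT 2: C1qa was at 150, 154, 173 and 127 FPKM in WT 1, WT 2, MUT 1 and MUT 2. C1qb had a log2 difference of 0.08 and C1qc of 0.06. The exceptions at an unadjusted limma p under 0.05 were Colec12, a scavenger receptor of the collectin family, and the ficolin gene Fcna. Colec12 was at 39.0 and 35.6 FPKM in wild type, against 24.6 and 16.7 FPKM in the mutants (log2 difference -0.85, limma adjusted p = 0.790). Fcna was at 4.21 and 4.36 FPKM in wild type, against 2.18 and 3.26 FPKM in the mutants (-0.52, limma adjusted p = 0.994).

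Of the alternative route, Cfp, which encodes the convertase stabiliser properdin, was at 14.5 and 12.7 FPKM in wild type, against 16.9 and 15.3 FPKM in the mutants (log2 difference 0.23). Cfd, which encodes the adipose-made protease adipsin that cuts factor B, was at 184 and 202 FPKM in wild type, against 96.2 and 757 FPKM in the mutants. MUT 2 was the highest and MUT 1 the lowest, as for the adipocyte markers. Fabp4 was at 249, 484, 153 and 1328 FPKM and Car3 at 83.3, 196, 40.3 and 547 FPKM in WT 1, WT 2, MUT 1 and MUT 2. C8g was low in all samples, at 1.99 to 2.71 FPKM. Among the receptors, 0 of 5 tested genes had groups without overlap, with log2 differences of 0.16 for the integrin gene Itgb2, 0.19 for Itgam and -0.07 for the C5a receptor gene C5ar1.

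**Figure D3:**
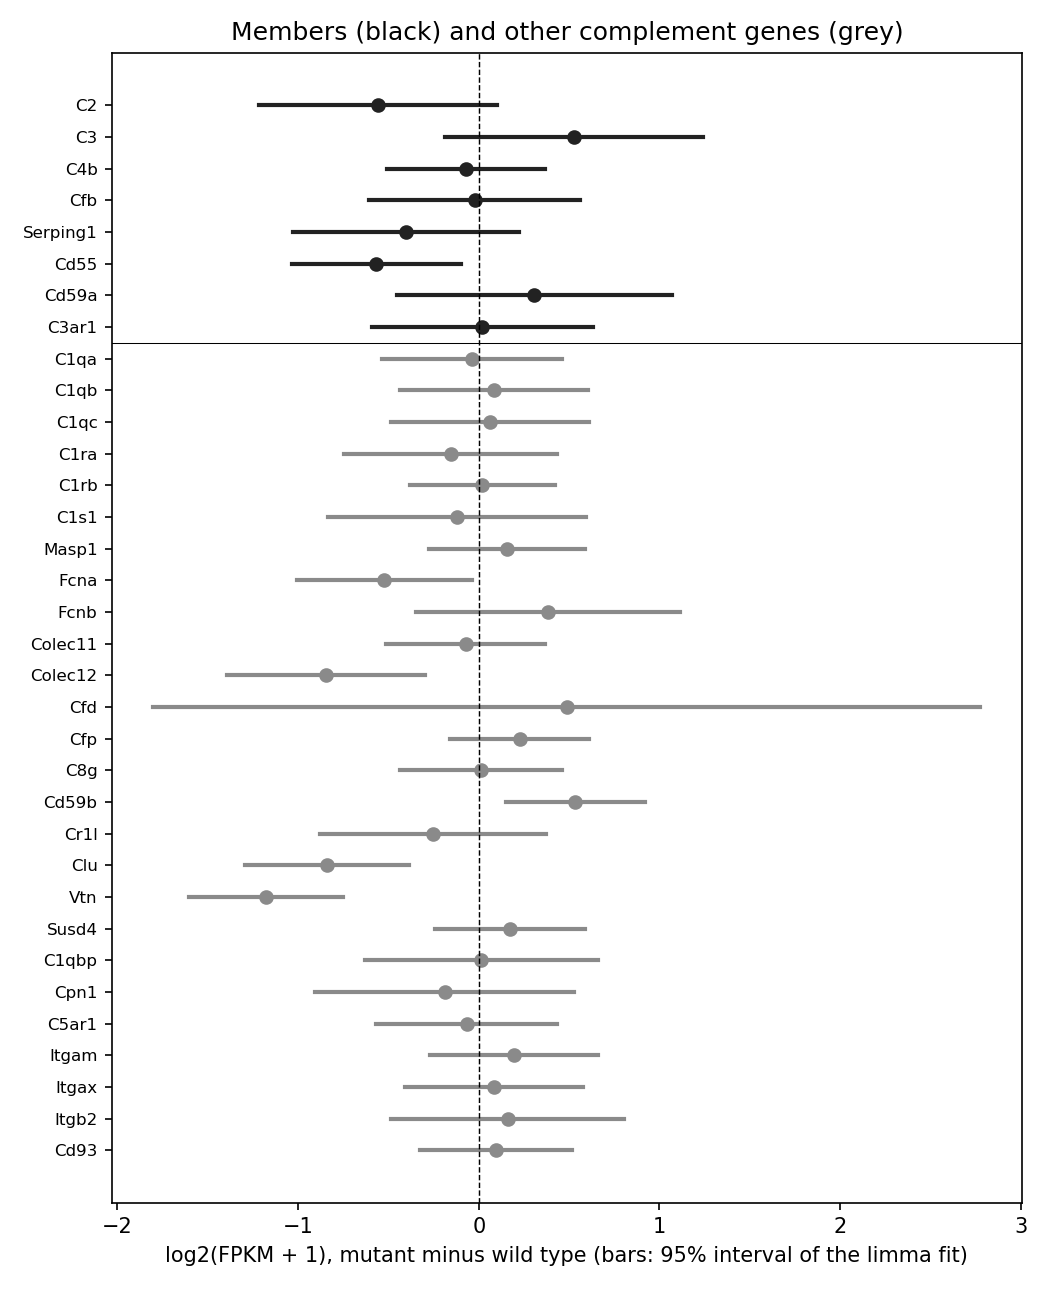
Log2(FPKM + 1) difference, mutant minus wild type, for the 8 members (black, above the line) and 26 other complement genes (grey), with dots for the fitted difference and bars for the 95% interval of the limma fit. The interval of Cd55 (-1.03 to -0.10) lies below 0 while those of the 7 other members span it, and Vtn, at -1.18, is the lowest of all.

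C2, Cfb and C4b lie together in the class III part of the major histocompatibility complex on chromosome 17, whose other genes were used as a local comparison. Of 28 neighbouring genes tested, the groups did not overlap for 11 higher and 1 lower in the mutants, where 12.5% and 19.6% of all genes did so, the median log2 difference was 0.12, and with limma 0 passed an adjusted p of 0.05. The synaptic membrane gene Prrt1 was at 3.33 and 2.72 FPKM in wild type, against 4.85 and 4.39 FPKM in the mutants (log2 difference 0.48, limma adjusted p = 0.994). The most abundant neighbours were Clic1 (log2 difference -0.0055) and Egfl8 (0.36). C2, at -0.56, had the lowest difference of the 31 genes, below Aif1 at -0.19 (named after its value was seen), and its 95% interval overlapped those of the adjacent Cfb (-0.61 to 0.56) and of Zbtb12 (-0.27 to 0.75, also named after its value was seen), which lies within the annotated span of C2 on the other strand. The difference between C2 and its neighbours was not tested.

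**Figure D4:**
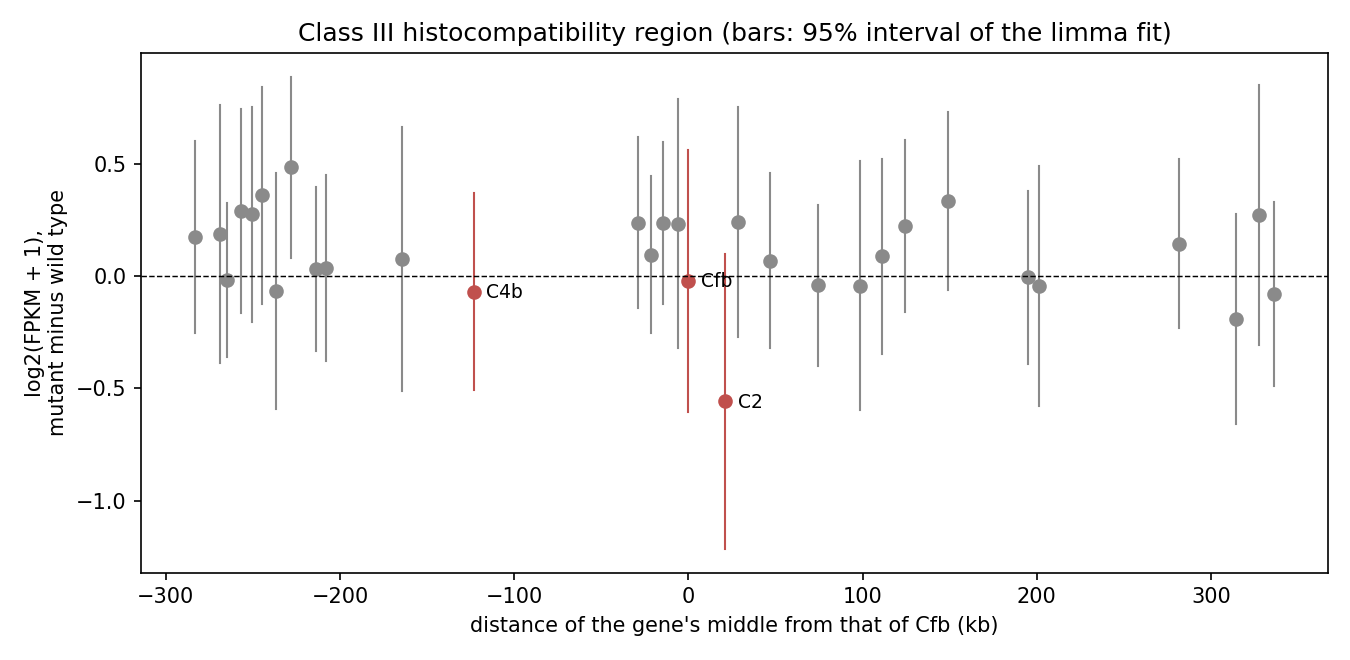
Log2(FPKM + 1) difference, mutant minus wild type, of 31 genes of the class III region by distance from Cfb in kb, with C2, Cfb and C4b in red, 28 neighbours in grey and bars for the 95% interval of the limma fit. C2 is the lowest point at -0.56, while Cfb and C4b lie near 0.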

How the data were processed

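Bulk RNA sequencing of dorsal root ganglia gave 4 libraries, grouped by their titles into 2 wild type and 2 mutant samples. Deposited were an FPKM matrix and the authors' table of 150 genes, which per the file headers holds each group's FPKM, the log2 fold change and the p-value and q-value in Cuffdiff's format. By its title that table is limited to genes of at least 1 FPKM with a log2 change of 1 at a false discovery rate of 0.05. Its test score, also deposited, was not used. The tools named by the submitters' processing notes are Cufflinks 2.2.1, TopHat2 2.1.2 and CASAVA, with build mm10. Strandedness, settings and depth were not given in the sources used here. Every gene in the matrix reached 1 FPKM in at least 1 sample.

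From the matrix, log2(FPKM + 1) was fitted with limma 3.58.1 in R 4.3.3, with a variance prior following mean expression, keeping the 14040 genes whose group mean reached 1 FPKM in wild type or mutant, with Benjamini-Hochberg adjustment over all of them. The pseudocount of 1 understates differences of low genes. The model had 2 residual degrees of freedom. One gene of the lists is not reported here. The members and gene lists were chosen with earlier results of these data known. Named genes are the members, Prdm12, Avil, the most abundant of each list and, in the complement, class III and interferon lists, those at an unadjusted p under 0.05. The 2 closest profiles to each member and complement genes of the authors' table were also named. Of marker lists, those that bear on a member are described beside it and all are given at the close. GENCODE M21 (GRCm38, which is mm10) gave the coordinates. Alternatives were other pseudocounts, filters, scalings and priors, a replicate block, and each sample left out.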

Additional observations from a re-analysis of the deposited data

How the results depend on the processing

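With limma, 0 of the 8 members passed an adjusted p of 0.05 in each of the 12 alternatives, which included other pseudocounts (0.1 and 5), filters (5 FPKM and none), scalings, a constant prior and each sample left out. Over all genes 61 passed with a replicate block and 0 to 5 with a sample left out, and 1 other complement gene, Vtn, passed with the block (limma adjusted p = 0.0315), where the smallest adjusted p of a member was 0.187 (C2) and 4 members (C2, C3, Cd55 and Cd59a) had an unadjusted p under 0.05, where 10.5% of all genes did. Prdm12 passed with the block too (limma adjusted p = 0.0250). Replicate 1 deviated from its group mean alike in both groups (r = 0.48 over 14040 genes), but the 2 numbers are not stated to mark pairs. The median of the activating components ran from -0.24 to 0.15 with a sample left out, 0.15 without WT 1 and 0.021 without MUT 2, so its sign is not stable. The median of the regulators ran from -0.51 to -0.085 and was -0.49 after quantile normalization. Single differences that changed sign with a sample left out ran from -0.31 to 0.35 for C3ar1, from -0.23 to 0.090 for C4b, from -0.039 to 0.65 for Cd59a and from -0.25 to 0.20 for Cfb, which was 0.012 after quantile normalization, and from -0.99 to 1.97 for Cfd. C2, C3, Serping1, Cd55 and Vtn kept their direction in all 12, and with a sample left out C2 ran from -0.82 to -0.29 and C3 from 0.20 to 0.85. The cause of these shifts was not tested.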

Other observations

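Interferon-response genes, given because interferon is known to induce several complement genes, had members on both sides of 0. Of 24 tested, 6 were higher and 3 lower without overlap, where 12.5% and 19.6% of all genes were so, with a median log2 difference of 0.14, and with limma 0 passed an adjusted p of 0.05. At an unadjusted limma p under 0.05, Rsad2 was at 3.35 and 3.80 FPKM in wild type, against 5.93 and 5.29 FPKM in the mutants, and Ifit3 at 26.0 and 24.1 FPKM in wild type, against 18.0 and 19.3 FPKM in the mutants. The abundant members Ifi27 and Psmb8 had log2 differences of 0.19 and 0.19. Of the 4 other complement genes with a row that were too low to test, Cfi and Csmd1 had groups without overlap. Cfi, a protease that inactivates C3b, was at 0.769 and 1.10 FPKM in wild type, against 0.358 and 0.440 FPKM in the mutants. Csmd1, of the same list of regulators, went the other way, at 0.678 and 0.790 against 1.07 and 0.933 FPKM. Both were chosen after their values were seen.

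Marker lists not described in full above gave the following summed FPKM. Satellite glia (7 genes, led by Apoe and Sparc) stood at 6928 to 7865 in wild type and 7027 to 7211 in the mutants, endothelial cells (10 genes, led by Ly6c1 and Egfl7) at 214 to 215 and 198 to 206, and mural cells (8 genes, led by Tagln and Acta2) at 199 to 253 and 195 to 244. Erythrocyte genes (6 with a row, led by Hbb-b1 and Hba-a1) stood at 3199 to 3406 in wild type and 6387 to 6514 in the mutants, without overlap. T cell, B cell and neutrophil genes (13 with a row, led by S100a8 and S100a9) stood at 1424 to 2182 and 2166 to 2846. The part of these cells in the complement values was not tested.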
